A study of Mus musculus with 9 samples.

Results

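The genes described here are the replication-dependent histone genes, which encode the linker histone H1 and the core histones H2A, H2B, H3 and H4 that package newly copied DNA. They were chosen by name: a gene of the count table was taken when its mouse symbol began with H2ac, H2bc, H3c or H4c followed by a digit, or when it was one of the linker genes H1-1 to H1-5, which the mouse annotation calls H1f1 to H1f5. The names of the major histocompatibility genes, which begin with H2-, were not taken. The rule found 62 of the 29288 genes of the table: 5 genes of H1, 17 of H2A, 17 of H2B, 10 of H3 and 13 of H4. Another 7 genes of the annotation fit the rule but had no row in the table and were not analysed here.

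The RNA came from crypt intestinal epithelial cells (IECs), taken from the proximal part of the small intestine. The mice were wild-type females of the inbred strain C57BL/6J. The mice were injected into the peritoneum with 2 μg of α-galactosylceramide (αGalCer), a glycolipid antigen that CD1d presents to natural killer T (NKT) cells, or with PBS. IECs were sorted as live EpCAM+, CD45-, CD31- and Ter119- cells at 18 h after PBS (control, 3 libraries), at 18 h after αGalCer (18h-αGal, 3 libraries) or at 72 h after αGalCer (72h-αGal, 3 libraries). All mice were wild type and each library carried its own replicate number. The comparison asks how histone transcripts of the crypt epithelium stood after NKT cell activation in vivo. The only controls were taken at 18 h, so at 72 h the treatment and the later sampling time cannot be told apart. By the study's methods the mice were young adults and each group had as many mice as libraries. The labels do not tie a library to a mouse, so the p-values measure the spread between these libraries.

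Replication-dependent histone genes are short, mostly without introns and grouped in clusters, and they are transcribed in S phase, when the cell copies its DNA. Their mRNAs are the metazoan mRNAs that end without a poly(A) tail. They end instead just after a conserved stem-loop, which the stem-loop binding protein SLBP holds and the U7 small nuclear ribonucleoprotein helps to cut. The libraries were made from ribodepleted total RNA, a method that does not select for poly(A), so these mRNAs were counted. In the small intestine, dividing cells sit in the crypts, below the non-dividing cells of the villi.

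The members of the group shared this end signal, which the rule for choosing them did not use. A window of up to 100 bases after the stop codon was read from the GENCODE vM39 transcripts and ended where the transcript ends. It was read for the 47 members with at least 16 such bases. Among 16-base words with a perfect 6-base stem in these windows, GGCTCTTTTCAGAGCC occurred in the most members and was taken as the stem-loop to search for. With up to 3 mismatches allowed, it was found in 41 of the 47 (87.2%), against 68 of the 17014 other protein-coding genes of the table with such a sequence (0.4%). The word was picked as the most frequent in these same members, so their share is partly set by that choice. There was no match for H1f1, H4c2, H4c11, H2bc21, H2bc23 and H2bc24. This says only that these letters are not in that window, which can be short where the annotated transcript ends early. The stem-loops of a few members are shown to let the classes be compared, with the stem-loop in capitals, flanked by 5 bases on each side and followed in the mRNA by the site of cutting.
H1f4: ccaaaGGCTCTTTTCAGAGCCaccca
H2ac4: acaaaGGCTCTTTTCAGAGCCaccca
H2bc8: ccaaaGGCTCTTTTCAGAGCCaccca
H3c1: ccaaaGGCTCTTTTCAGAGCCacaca
H3c6: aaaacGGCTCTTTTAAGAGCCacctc
H4c4: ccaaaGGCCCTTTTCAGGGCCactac
H4c18: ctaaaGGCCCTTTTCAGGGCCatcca
H4c9: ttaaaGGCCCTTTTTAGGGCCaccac
The letters followed the class. The form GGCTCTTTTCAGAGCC was carried by 24 members, of which 3 were H1, 8 H2A, 9 H2B and 4 H3 genes and 0 were H4 genes. Counting from 1 at the 5′ end of the stem-loop, the H4 form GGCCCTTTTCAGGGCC differs from it by T4C and A13G, a change on both sides of the stem, and was carried by 7 members, all of them H4 genes. The form of H3c6 differs by C10A and was carried by 5 members, 2 of H2B and 3 of H3. The form of H4c9, which H4c14 shares, differs by T4C, C10T and A13G.

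The promoters held the motifs known for these genes more often than other promoters did. RefSeq promoter sequences of GRCm38.p6, running from 250 bases before to 50 bases after the start, matched 50 of the 62 members. On either strand, CCAAT, the box bound by the factor NF-Y, was found in 42 of the 50 (84.0%), against 41.1% of all 27025 promoters. TATAAA, the letters of the TATA box, was found at any position of the window in 31 of the 50 (62.0%), against 15.7%. ATTTGCAT, the octamer bound by POU2F1, was found in 10 of the 50 (20.0%), against 2.0%, and lay in 5 of the 14 H2A and 5 of the 12 H2B promoters. CCAAT was in every matched H1, H2A, H2B and H3 promoter but in 3 of the 11 matched H4 promoters (27.3%). The promoters of H4c18 (chr13:21832148-21832447, minus strand) and H4c9 (chr13:22041313-22041612, minus strand) are shown because these genes passed the test below, and that of H2bc8 (chr13:23571150-23571449, plus strand) because H2bc8 is read from it on one strand and H2ac8 on the other. Capitals mark these motifs or their reverse complements.
H4c18: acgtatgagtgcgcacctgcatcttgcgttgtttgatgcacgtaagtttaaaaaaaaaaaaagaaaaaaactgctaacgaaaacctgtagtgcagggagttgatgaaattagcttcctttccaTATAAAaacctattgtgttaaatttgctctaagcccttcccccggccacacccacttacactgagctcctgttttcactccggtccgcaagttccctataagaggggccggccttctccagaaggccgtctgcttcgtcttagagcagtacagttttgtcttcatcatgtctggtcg
H4c9: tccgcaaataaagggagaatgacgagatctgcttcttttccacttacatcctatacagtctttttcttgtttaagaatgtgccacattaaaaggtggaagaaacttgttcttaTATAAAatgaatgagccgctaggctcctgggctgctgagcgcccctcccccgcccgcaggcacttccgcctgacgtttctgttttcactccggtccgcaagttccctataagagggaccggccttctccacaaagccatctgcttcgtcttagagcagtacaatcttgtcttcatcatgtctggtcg
H2bc8: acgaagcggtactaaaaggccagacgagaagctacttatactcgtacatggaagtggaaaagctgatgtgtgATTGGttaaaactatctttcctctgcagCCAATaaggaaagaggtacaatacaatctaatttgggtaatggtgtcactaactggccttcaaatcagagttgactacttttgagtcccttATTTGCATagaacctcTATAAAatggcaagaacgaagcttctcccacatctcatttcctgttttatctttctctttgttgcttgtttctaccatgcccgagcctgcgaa
A match is a description of the letters and not of a bound site.

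The genes lay close together. By the GRCm39 positions of GENCODE vM39, 53 of the 62 members lay on chromosome 13 within 2048.5 kb (21899933 to 23948389), 5 on chromosome 3 within 43.4 kb, 3 on chromosome 11 and 1, H4c16, on chromosome 6. There were 12 pairs of an H2A and an H2B gene that face away from each other without overlap, 1 of them with the pseudogene H2ac14-ps. Counted per kb of exon, the H2B gene of the pair had the higher level in 8 of the 12 pairs, and in 7 of the 11 without the pseudogene. H2ac8 and H2bc8, whose starts are 176 bases apart, had mean levels of 393 and 1735 normalised counts per kb, and H2ac7 and H2bc7, 185 bases apart, had 62.1 and 1631. The normalised count is the deposited read count of a gene divided by a factor for the size of its library.

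Similar sequence limits what can be assigned to a single member. A median of 42.6% of the 100-base words of a member's exons, the length of a read, also occurred in another gene of the annotation, and 28 of the 62 members shared 50% or more of their words. By class the median was 3.5% for H1, 76.2% for H2A, 40.1% for H2B, 40.0% for H3 and 23.4% for H4. How reads that fit several genes were counted is not given in the sources used here. Exons of 29 members overlapped those of another gene, for 28 of them on the opposite strand. The kit marks the strand of each read, but the strand setting of the counting is not given.

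The libraries held 8887861 to 32722293 counts over all genes, and histone genes took 0.145% to 0.295% of them. Replicate 3 was the shallowest library of both the control and the 18h-αGal group. These 2 libraries stood apart from the rest of their groups in other ways too: of the 58 tested members, control replicate 3 was the lowest control for 44, and 18h-αGal replicate 3 was the lowest of its group for 43. Markers of villus enterocytes (7 of 7 in the table) summed to 151468 and 155781 normalised counts in these libraries, the highest of the 9, and genes of DNA replication summed to 22980 and 27063, the lowest. The part of these differences in the results was not tested, and results are given below with and without both libraries. Epithelial genes (6 of 6 in the table) summed to 80259 to 116329 normalised counts in the 9 libraries. Leukocyte genes (7 of 8 in the table) summed to 91.3 to 169, with group means of 126 in control, 122 in 18h-αGal and 136 in 72h-αGal.

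All classes were transcribed in the crypt IECs. Over the 9 libraries, H3 genes held 31.1% of the normalised counts of the group, H4 genes 26.3%, H1 genes 22.8%, H2B genes 15.0% and H2A genes 4.75%. Per kb of exon, the median member of H3 had 1972 normalised counts, of H1 1276, of H4 869, of H2B 157 and of H2A 84.3. The H2A genes shared the most sequence (median 76.2% of words, against 3.5% for H1), and H2B and H3 genes shared 40.1% and 40.0%. How far the order of the classes depends on the counting of reads that fit several genes was not tested. The 7 genes without a row are not in these values. The 10 members with the highest mean normalised count held 56.6% of the total. In order of that count they were H4c4, H3c6, H1f4, H1f3, H3c1, H3c11, H1f2, H1f5, H4c6 and H4c14. Counted per kb, H3c11 came first with 5387, followed by H3c1 with 5105, H3c6 with 4233 and H4c4 with 4134, while H1f3, whose model is 7425 bases long, had 368. A mean of 100 or more normalised counts was reached by 43 members, and 4 members, H4c2, H2bc24 and the pseudogenes H2ac5-ps and H2ac14-ps, were too low to be tested.

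The histone genes as a group stood higher at 18 h after αGalCer, mostly by less than the test could call for a single gene. In the control libraries the 62 genes summed to 39184, 46571 and 30728 normalised counts. In 18h-αGal they summed to 53242, 57072 and 39660, and in 72h-αGal to 51358, 43159 and 42236. The 2 groups at 18 h overlapped, since 18h-αGal replicate 3 lay between the control libraries. The 72h-αGal group overlapped the controls through replicates 2 and 3, while its replicate 1 lay above every control. The means were 38828 ± 7928 (SD, n = 3) in control, 49991 ± 9150 in 18h-αGal and 45584 ± 5021 in 72h-αGal. In bulk RNA a larger share of dividing cells and more histone RNA per cell cannot be told apart.

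**Figure D1:**
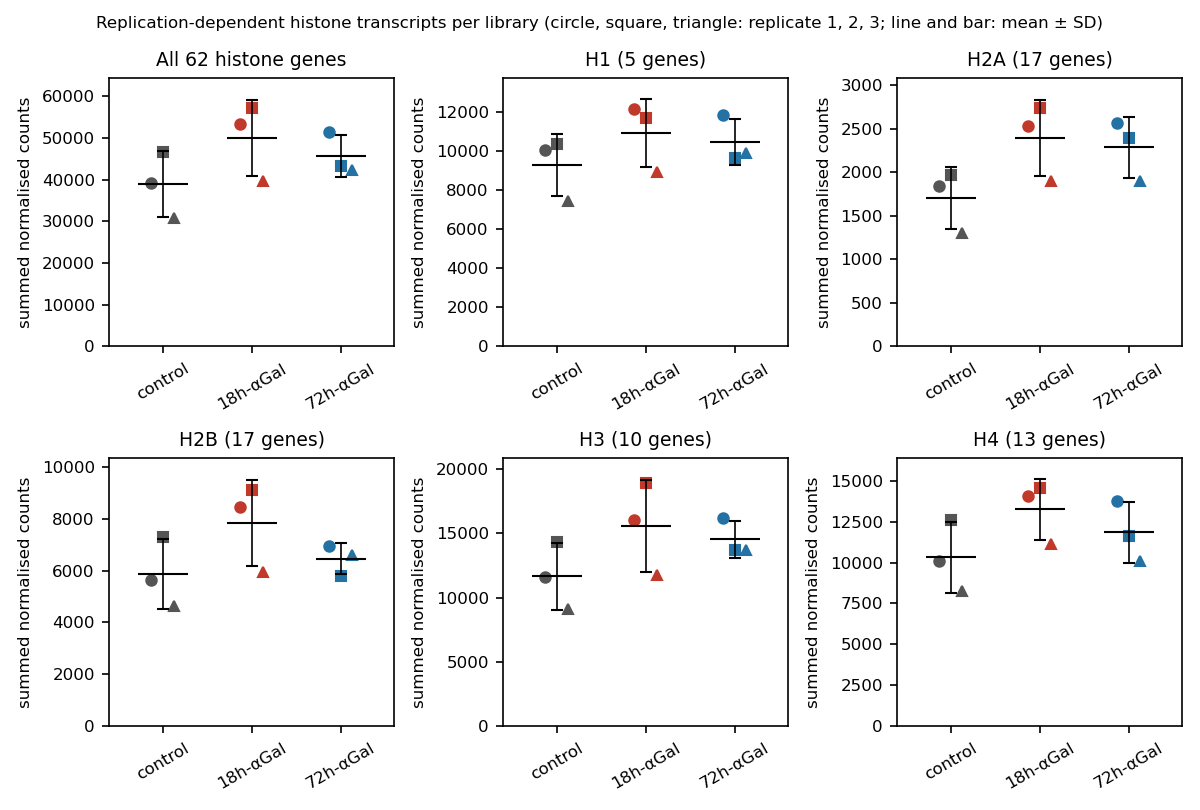
Summed normalised counts of the 62 histone genes and of each class (vertical axes) in the 3 groups, with a point for each library and the mean ± SD. In every panel the lowest control and the lowest 18h-αGal library is replicate 3 (triangle), and the groups overlap.

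By edgeR's quasi-likelihood test, 1 of the 58 tested members, H4c18, passed an adjusted p of 0.05 between 18h-αGal and control (1.72%), and 5.96% of all 18933 genes tested did. Among all genes 3.27% were called higher, the direction of H4c18. The direction was more uniform than the calls: 49 of the 58 had a log2 fold change above 0 (84.5%), and 47.6% of all genes tested did. The median log2 fold change was 0.43 for the histone genes and -0.03 for all genes. At an unadjusted p under 0.05, 22 members were higher (37.9%, against 10.5% of all genes) and 1, H2bc4, was lower (1.72%, against 10.3%). All 3 18h-αGal libraries lay above all 3 controls for 12 members (20.7%, against 11.5% of all genes). Since members share sequence, clusters and libraries, these counts describe the group and are not a test of it.

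Leaving out replicate 3 of both groups, a choice made after seeing the data, kept the direction and raised the number of calls. The median was then 0.46, 50 of 60 tested members lay above 0, and 10 members passed (16.7%), against 8.34% of all genes. Of these, 9 were higher in 18h-αGal (H1f5, H2ac8, H2ac12, H2bc7, H2bc11, H3c2, H3c4, H3c11 and H4c14) and 1 was lower (H2bc21), while H4c18 no longer passed. The libraries left out were the lowest of their groups for 44 and 43 of the 58 tested members. Leaving them out can narrow the spread of these genes, so the added calls cannot be read apart from that choice. With a single library left out the number of calls ran from 0 to 9, the highest being without 18h-αGal replicate 3. DESeq2 called 6 of the 60 members it tested, all higher, against 8.3% of all genes.

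**Figure D2:**
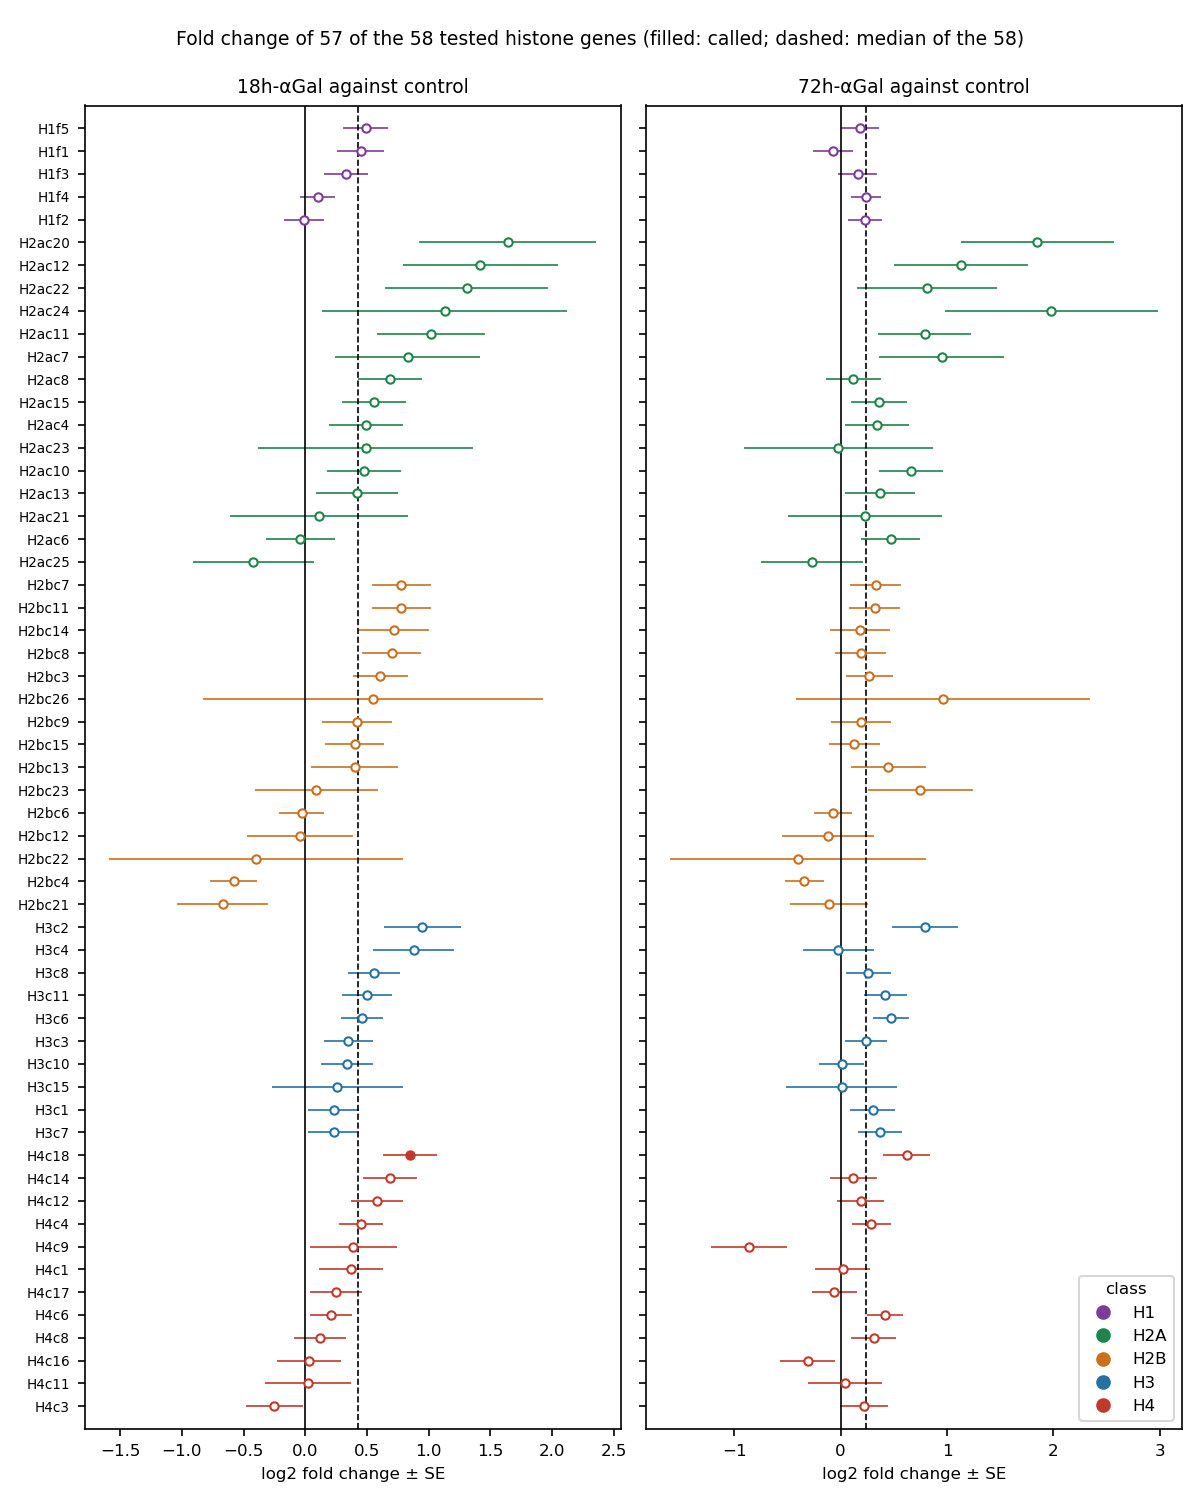
Log2 fold change with its SE (horizontal axis) of 57 of the 58 tested histone genes against control, at 18 h (left) and 72 h (right), coloured by class. The dashed median lies at 0.43 on the left and 0.24 on the right, and H4c18 at 18 h is the only filled (called) point; H2bc27, with almost no reads in control, is not drawn.

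H4c18, a gene for histone H4, was the member that rose. It lies at chr13:22015937-22016366 on the minus strand (GRCm39) in a single exon of 430 bases. It had 194, 354 and 269 normalised counts in control, 427, 506 and 533 in 18h-αGal, and 453, 385 and 402 in 72h-αGal. All libraries of both αGalCer groups lay above all controls. The change at 18 h was 0.85 on the log2 scale (SE 0.22, 1.80-fold, adjusted p = 0.0359), and at 72 h it was 0.62 (adjusted p = 0.81). The call at 18 h was lost in 11 of 17 alternative analyses. Over all 17 the adjusted p ranged from 0.0102 to 0.146 and the log2 fold change from 0.65 to 1.11. The lowest of these values came without control replicate 1, and the highest without control replicate 2. H4c18 shared 80.7% of its words, most of them with its neighbour H4c17, so the assignment of reads between them is uncertain. H4c17 had 401, 506 and 371 normalised counts in control and 455, 642 and 422 in 18h-αGal, which overlapped (log2 fold change 0.25, adjusted p = 0.54). The sum of both genes was 596, 860 and 640 in control and 882, 1148 and 955 in 18h-αGal, and each 18h-αGal sum was above each control sum.

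H4c4, H4c6 and H4c14 had the highest counts of the H4 genes. H4c4 had 3586, 5099 and 3179 normalised counts in control, 5459, 6063 and 4592 in 18h-αGal and 5671, 4539 and 4146 in 72h-αGal. The groups overlapped, through control replicate 2, and the log2 fold change at 18 h was 0.45 (SE 0.18, adjusted p = 0.162). H4c6 had 1075, 1578 and 1022 in control, 1475, 1562 and 1187 in 18h-αGal and 1845, 1574 and 1452 in 72h-αGal, with overlap throughout and a log2 fold change of 0.21 at 18 h (adjusted p = 0.561). H4c14, on chromosome 3, had 1391, 1184 and 887 in control, 2041, 2154 and 1356 in 18h-αGal and 1534, 1225 and 977 in 72h-αGal. Only 18h-αGal replicate 3 reached into the range of the controls, and the log2 fold change of 0.69 had an SE of 0.22 and an adjusted p of 0.0835. H4c8 and H4c16, the next in order, had log2 fold changes at 18 h of 0.12 and 0.03 (adjusted p = 0.808 and 0.972). Of the 12 tested H4 genes 11 lay above 0 at 18 h, with a class median of 0.31.

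H3 was the only class with every tested member above 0 at 18 h, 10 of 10, with a median of 0.40 and a range of 0.23 to 0.95. H3c6, its most counted gene, had 2982, 3381 and 2133 normalised counts in control, 3725, 4726 and 3187 in 18h-αGal and 4263, 3783 and 3674 in 72h-αGal. 18h-αGal replicate 3 lay below control replicate 2, and the log2 fold change was 0.46 (SE 0.17, adjusted p = 0.139). H3c1 had 2326, 2830 and 2087 in control, 3102, 3494 and 1848 in 18h-αGal and 3328, 2852 and 2670 in 72h-αGal. Its lowest library of all was 18h-αGal replicate 3, and the log2 fold change at 18 h was 0.23 (adjusted p = 0.592). H3c11 had 1650, 2180 and 1507 in control, 2657, 3131 and 1719 in 18h-αGal and 2650, 2183 and 2247 in 72h-αGal. Again replicate 3 of 18h-αGal lay among the controls (log2 fold change 0.50, adjusted p = 0.18). H3c4, named here after its values were seen, had 599, 666 and 233 in control, 1079, 1020 and 679 in 18h-αGal and 541, 415 and 528 in 72h-αGal. Each 18h-αGal library was above every other library, but the log2 fold change of 0.88 had an adjusted p of 0.151.

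**Figure D3:**
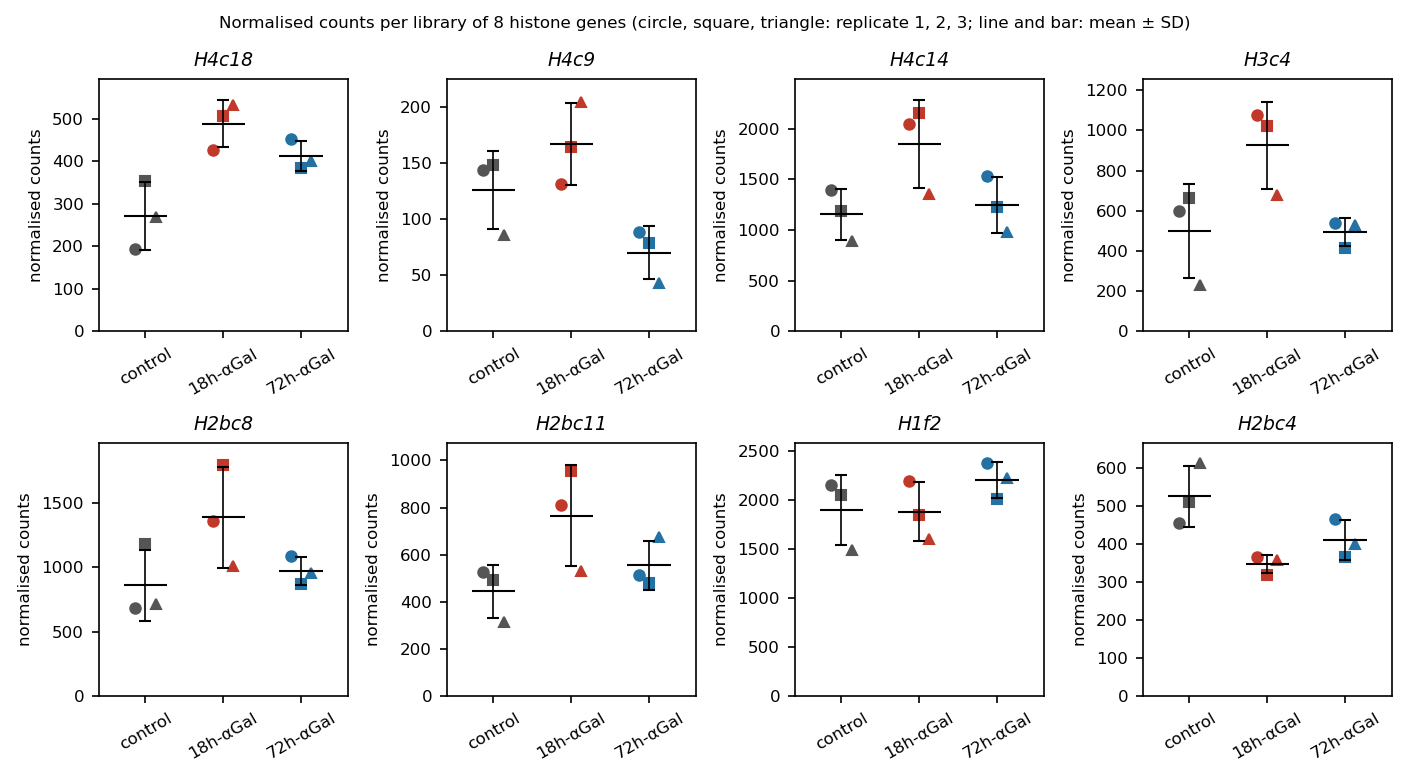
Normalised counts (vertical axes) of 8 histone genes in every library, with the mean ± SD of each group. H4c18, H4c14, H3c4, H2bc8 and H2bc11 have their highest mean at 18 h, H4c9 its lowest mean at 72 h, H1f2 hardly differs between control and 18h-αGal, and H2bc4 is lowest at 18 h.

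The linker histones bind DNA between nucleosomes. H1f4, the most counted of them, had 2891, 3020 and 2430 normalised counts in control, 3253, 3093 and 2576 in 18h-αGal and 3878, 3059 and 2831 in 72h-αGal, and the groups overlapped (log2 fold change at 18 h 0.10, SE 0.14, adjusted p = 0.747). H1f3 had 2741, 2847 and 1724 in control, 3404, 3327 and 2453 in 18h-αGal and 2853, 2611 and 2648 in 72h-αGal, with a log2 fold change of 0.33 at 18 h (adjusted p = 0.317). H1f2 had 2145, 2052 and 1483 in control, 2194, 1840 and 1596 in 18h-αGal and 2373, 2002 and 2224 in 72h-αGal. Its control and 18h-αGal libraries covered the same range (log2 fold change -0.01, adjusted p = 0.987). H1f5 had 1462, 1477 and 1125 in control, 2109, 2137 and 1445 in 18h-αGal and 1799, 1249 and 1522 in 72h-αGal. Its 18h-αGal replicates 1 and 2 lay above all controls and replicate 3 did not, with a log2 fold change of 0.49 (SE 0.18, adjusted p = 0.123). H1f1, named after its values were seen, had 805, 986 and 680 in control, 1193, 1313 and 846 in 18h-αGal and 927, 754 and 668 in 72h-αGal, with overlap (log2 fold change at 18 h 0.45, adjusted p = 0.2). Of the 5 H1 genes 4 lay above 0 at 18 h, with a class median of 0.33.

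H2A and H2B form the dimers of the nucleosome. H2ac4, the most counted H2A gene, had 404, 504 and 185 normalised counts in control, 482, 602 and 465 in 18h-αGal and 539, 528 and 327 in 72h-αGal. The groups overlapped, and the log2 fold change at 18 h was 0.49 (SE 0.30, adjusted p = 0.403). H2bc15, the most counted H2B gene, had 1023, 1530 and 842 in control, 1737, 1694 and 1027 in 18h-αGal and 1279, 1036 and 1378 in 72h-αGal, again with overlap (log2 fold change 0.40, adjusted p = 0.398). Over the classes, 13 of 15 tested H2A genes and 11 of 16 tested H2B genes lay above 0, with medians of 0.56 and 0.41. H2bc27 had 0, 3.80 and 0 normalised counts in control and 25.2, 23.4 and 11.04 in 18h-αGal, and with so few reads in control no fold change is given. Chosen after their values were seen, H2bc7, H2bc8 and H2bc11 had log2 fold changes of 0.78, 0.70 and 0.78, with adjusted p values of 0.0721, 0.106 and 0.0712. All 3 carry the stem-loop, and H2bc8 the promoter shown above.

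A few members ran the other way. H2bc4, named after its values were seen, had 455, 510 and 613 normalised counts in control, 365, 319 and 357 in 18h-αGal and 467, 366 and 399 in 72h-αGal. Every 18h-αGal library lay below every control, with a log2 fold change of -0.58 (unadjusted p = 0.00659, adjusted p = 0.0768). Its exons overlap those of H2ac6 on the opposite strand. In all, 9 members had a log2 fold change below 0 at 18 h, and 6 of these have gene models of over 1000 bases, longer than a replication-dependent histone mRNA usually is. Among the 17 tested members with such a model, 11 lay above 0 and the median was 0.10. Among the 41 with models of up to 1000 bases, 38 lay above 0 and the median was 0.49. This split was made after the values were seen, and the difference was not tested. The split by shared sequence moved the median less, to 0.41 for the 34 tested members with under 50% of shared words and 0.48 for the 24 with more.

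**Figure D4:**
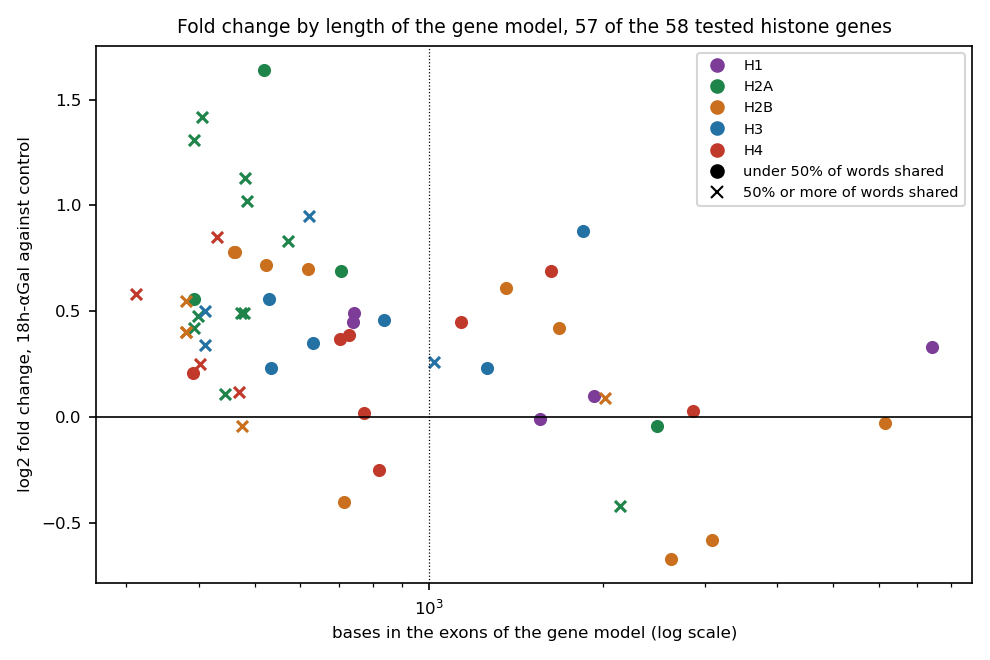
Log2 fold change between 18h-αGal and control (vertical axis) against the bases in the exons of the gene model (horizontal log axis) for 57 of the 58 tested histone genes, with crosses for genes that share 50% or more of their words. To the right of the dotted line at 1000 bases 11 of 17 genes lie above 0, and to the left 38 of 41, the latter count including H2bc27, which is not drawn.

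At 72 h no member passed the test against control, and neither did most genes: 0.0264% of all genes tested were called, all of them lower. The smallest adjusted p among the members was 0.81. DESeq2 called none of the members either, and every other alternative gave 0. Still, 46 of the 58 members lay above 0 (79.3%, against 50.3% of all genes), with a median log2 fold change of 0.24. At an unadjusted p under 0.05, 6 members were higher (10.3%, against 2.36% of all genes) and 1 was lower (1.72%, against 3.58%). All 3 72h-αGal libraries lay above all 3 controls for 12 members (20.7%, against 6.36%), and H4c18, H2ac10, H2ac20, H2ac22 and H2ac24 were among the 12 at both times. Of these, H2ac20, H2ac22 and H2ac24 had few reads, with mean normalised counts of 29.85, 33.14 and 12.61. Both times share the control libraries, so the numbers of members at the 2 times are not independent. H3c6, one of the higher 6, had a log2 fold change of 0.47 at 72 h and 0.46 at 18 h.

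Between 72h-αGal and 18h-αGal the histone genes leaned lower. The median log2 fold change was -0.16, against 0.05 for all genes, and 21 of 58 members lay above 0 (36.2%, against 53.4%). A single member, H4c9, passed the test (1 of 58, 1.72%, against 10.2% of all genes), and it was lower, as were 6.04% of all genes. At an unadjusted p under 0.05, 6 members were lower (10.3%, against 12.8% of all genes) and 0 were higher (against 11.4%). H4c9 (chr13:22224806-22225532 on the minus strand, GRCm39, 727 bases) is an H4 gene that shares 15.1% of its words. It had 144, 148 and 85.6 normalised counts in control, 131, 164 and 204 in 18h-αGal and 88.0, 78.7 and 43.4 in 72h-αGal. Every 72h-αGal library lay below every 18h-αGal library, while the highest of them lay just above the lowest control. H4c9 fell by 1.25 on the log2 scale between the 2 times (SE 0.36, adjusted p = 0.0385), and its log2 fold changes against control were 0.39 at 18 h (adjusted p = 0.589) and -0.86 at 72 h (adjusted p = 0.826). The call was lost in 9 of 17 alternatives, with log2 fold changes from -1.44 without 72h-αGal replicate 1 to -0.99 without 72h-αGal replicate 3.

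Without replicate 3 of control and 18h-αGal, 9 members were called lower at 72 h than at 18 h (15.0%), against 7.21% of all genes. H4c9 was not among them (adjusted p = 0.064). The 9 were H1f1, H1f5, H2ac8, H2bc7, H2bc8, H2bc11, H3c4, H4c14 and H4c16. The median of the group was then -0.28. These calls too cannot be read apart from the choice of libraries left out.

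The genes around the histone genes were read from lists of their roles. In the list for histone transcription and mRNA processing, 2 of 22 rose at 18 h and 0 fell, with a median log2 fold change of 0.20. Over all genes tested 3.27% were called higher, and 47.6% lay above 0, which is the background for this list and those that follow. The 2 were Cpsf2, a subunit of the complex that cuts mRNA ends (0.70, adjusted p = 0.014), and Ncbp1, a subunit of the complex that binds the mRNA cap (0.63, adjusted p = 0.0294). The call of Cpsf2 was lost in 3 of 17 alternatives, among them those without control replicate 1 or 18h-αGal replicate 2. That of Ncbp1 was lost in 5, among them those without control replicate 2 or 3 or 18h-αGal replicate 1 or 2. The genes most specific to histone mRNA did not pass. Slbp, the stem-loop binding protein, had 1032 ± 209 normalised counts in control and 1208 ± 65.3 in 18h-αGal (SD, n = 3; log2 fold change 0.23, adjusted p = 0.442). Npat, the coactivator of histone transcription, had 1087 ± 404 and 1026 ± 192 (log2 fold change -0.08, adjusted p = 0.896). Log2 fold changes were 0.40 for Lsm10 and 0.27 for Lsm11, the histone-specific ring proteins of the U7 particle, 0.20 for Casp8ap2, a partner of NPAT in the histone locus body, 0.10 for Hinfp, an activator of H4 genes, and 0.48 for Eri1, the nuclease that trims the stem-loop, with adjusted p values of 0.218 or more.

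The genes of DNA replication leaned the same way as the histone genes. At 18 h 35 of 40 lay above 0, with a median log2 fold change of 0.33, and 1 rose: Rrm2, the subunit of ribonucleotide reductase that limits the supply of nucleotides in S phase. Rrm2 had 688, 660 and 552 normalised counts in control, 1529, 1498 and 1089 in 18h-αGal and 678, 838 and 599 in 72h-αGal. All 18h-αGal libraries were above all others, and the log2 fold change was 1.12 (SE 0.18, adjusted p = 0.00212). Pcna, the sliding clamp of the replication fork, had 1537 ± 295 in control and 1537 ± 268 in 18h-αGal (log2 fold change 0.01). The ratio of summed histone counts to summed counts of the replication list was 1.25 ± 0.0863 in control, 1.31 ± 0.146 in 18h-αGal and 1.29 ± 0.0978 in 72h-αGal (SD, n = 3), and the groups overlapped.

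In cell cycle control 6 of 33 genes rose at 18 h and 0 fell, with a median of 0.38. The D cyclin Ccnd1 rose by 1.27 on the log2 scale (adjusted p = 0.00027), and its call held in all 17 alternatives. The transcription factor E2f2 (0.59, adjusted p = 0.0127) lost its call in 1 alternative, without control replicate 1. Rb1, an inhibitor of E2F factors (0.47, adjusted p = 0.0429), lost its call in 10, among them those without control replicate 1 or 2, 18h-αGal replicate 2 or 3, or 72h-αGal replicate 1. The other 3, named after their values were seen, were the D cyclin Ccnd3 (0.92, adjusted p = 0.0137), the S phase cyclin Ccna2 (0.64, adjusted p = 0.0333) and the mitotic kinase Plk1 (0.65, adjusted p = 0.019). Their calls were lost in 1, 6 and 4 of the alternatives, in each case also without 18h-αGal replicate 2. For Ccna2 this also held without 18h-αGal replicate 1, control replicate 1 or 3, or 72h-αGal replicate 1, and for Plk1 without 18h-αGal replicate 1 or control replicate 1. Ccne1, Ccne2 and Cdk2, the cyclins and the kinase that act on NPAT at the start of S phase, had log2 fold changes of 0.43, 0.38 and 0.01, and none passed (adjusted p of 0.465 or more). E2f1 had -0.11 (adjusted p = 0.888), and Mki67, a marker of dividing cells, 0.40 (adjusted p = 0.116).

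Histone chaperones, which carry histones to DNA, had a median of 0.31, and 1 of 22 rose: Daxx (0.67, adjusted p = 0.0238), which handles the replacement histone H3.3. Its call was lost in 4 of 17 alternatives, those without replicate 1 or 2 of control or of 18h-αGal. The 11 replacement histones, made outside S phase from polyadenylated mRNAs, had a median of -0.02. H2az1 rose (1510 ± 176 in control and 2383 ± 142 in 18h-αGal, log2 fold change 0.66, adjusted p = 0.0089). H2az2, the other gene for H2A.Z, fell (779 ± 42.3 and 482 ± 40.5, log2 fold change -0.68, adjusted p = 0.0127), a call lost in 1 alternative, without 18h-αGal replicate 2. H3f3a and H3f3b, the genes for H3.3, had log2 fold changes of -0.01 and -0.02, and H2ax, whose transcript can end either way, 0.49 (adjusted p = 0.103). At 72 h no gene of any of these lists passed against control.

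**Figure D5:**
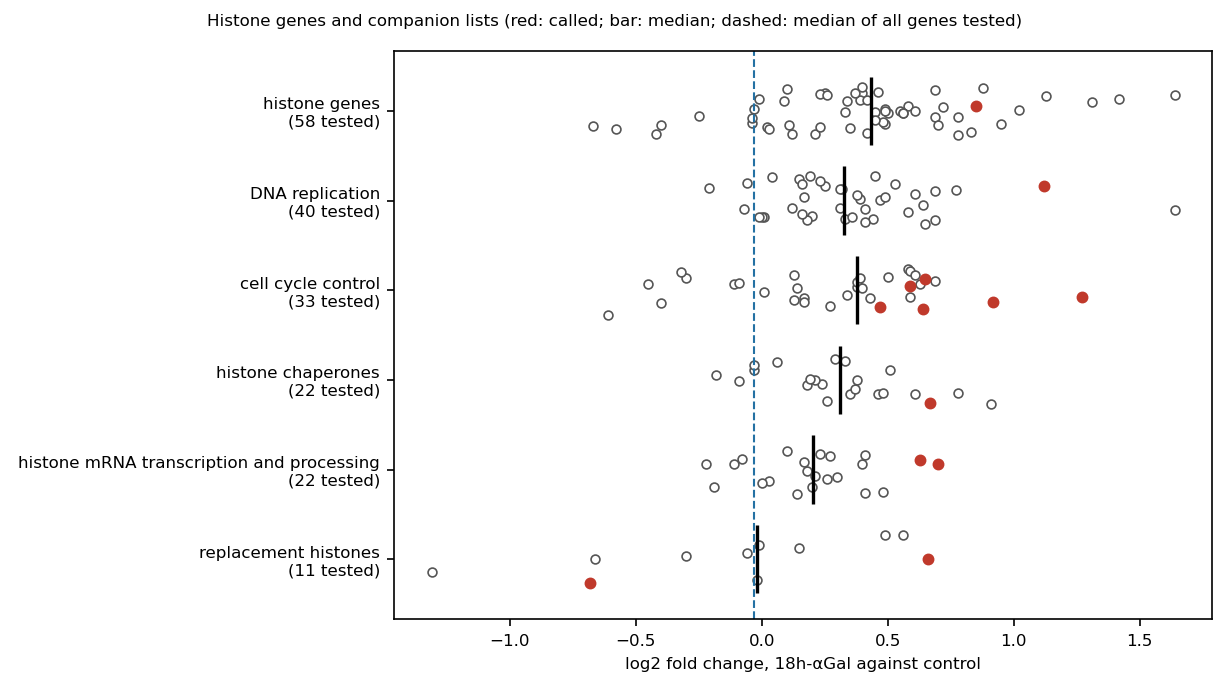
Log2 fold change between 18h-αGal and control (horizontal axis) for the histone genes and 5 lists of related genes (H2bc27 not drawn), each point a gene, red where called. The list medians run from -0.02 for replacement histones to 0.43 for the histone genes, and the dashed line marks -0.03, the median of all genes tested.

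Summed markers of other cell types differed between the group means, though few of their genes passed the test. In the stem cell, villus enterocyte, endothelial and stromal lists no gene passed against control at either time. Between the times only Axin2, of the stem cell list, passed. Only 1 endothelial and 1 stromal gene had enough reads to be tested. The stem cell list (5 genes) summed to 46401 ± 13672 normalised counts in control, 20045 ± 10888 in 18h-αGal and 49032 ± 11339 in 72h-αGal (SD, n = 3). Every 18h-αGal stem cell sum lay below every control sum, while the 72h-αGal sums overlapped the controls. All 5 genes had a log2 fold change below 0 at 18 h (median -1.21). Villus enterocyte genes summed to 103363 ± 44167, 115838 ± 34704 and 58851 ± 18583. Endothelial genes (3 of 3 in the table) summed to 48.4 ± 8.30, 17.4 ± 4.27 and 21.6 ± 1.65, and stromal genes (3 of 3) to 29.9 ± 7.26, 7.09 ± 6.13 and 6.99 ± 4.79. For the endothelial and the stromal sums, every αGalCer library lay below every control. Mitochondrially encoded genes took 10.1% ± 1.38, 8.68% ± 0.701 and 11.04% ± 0.664 of the counts. As another class of RNA without poly(A), chosen after the values were seen, 15 small Cajal body RNA genes summed to 2318 ± 275, 2059 ± 290 and 2774 ± 69.6. Their mean was lower in 18h-αGal than in control, but the libraries of these groups overlapped. The part of these in the histone result was not tested.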

How the data were processed

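Bulk RNA-seq of sorted crypt IECs was analysed from 9 libraries, 3 each of control, 18h-αGal and 72h-αGal. According to the study's methods and the submitters' processing notes, the authors made directional, ribodepleted libraries with the NEBNext Ultra II kit, aligned 100 bp reads with HISAT2 and deposited whole-number read counts per gene from featureCounts (Subread). The build is given as GRCm39 in the methods and as GRCm38 in the notes, so positions here come from the annotation and not from the counting. The deposited table of normalised counts, a signal made by the authors with DESeq2 1.42.0, equals counts divided by size factors (largest relative difference 5.9e-15) and gives the levels. Gene symbols were matched by Ensembl identifier to GENCODE vM39 for 28480 of 29288 rows.

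Counts were tested in R 4.3.3 with edgeR 4.0.16 (filterByExpr, TMM factors, robust quasi-likelihood fit over all 9 libraries), and p-values were adjusted by Benjamini-Hochberg over the 18933 genes tested. A gene was called at an adjusted p under 0.05. Common dispersion was 0.123. On simulated counts for 18h-αGal against control over 18400 genes, with 50 genes changed at each size, edgeR recovered 0% of 1.5-fold, 6% of 2-fold, 50% of 3-fold and 80% of 4-fold changes, and 3 of 71 calls were false. The simulation gave every gene the common dispersion, so these shares do not hold for genes with a smaller spread. In the data the test called E2f2 at a log2 fold change of 0.59 and Rb1 at 0.47 (18h-αGal against control). DESeq2 1.42.0 was an alternative. A floor of 3 counts per library was 0.0917 to 0.338 CPM, which covers counting error only. Shared words are 100-base stretches of a member's exons that occur in another gene.

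Members and lists were chosen with earlier results of these data known. The values of named genes were given by rule: histone genes called in a comparison, the 10 with the highest mean count, the highest of each class, up to 5 called genes of each list and 17 fixed regulators. Lists covered replacement histones, histone transcription and processing, chaperones, DNA replication, cell cycle, epithelium, leukocytes, endothelium, stroma, villus enterocytes and stem cells. Red cell markers and most other RNAs without poly(A) on the lists had no row and were not analysed here.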

Additional observations from a re-analysis of the deposited data

Results flagged for a closer look

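Between 72h-αGal and 18h-αGal, 12 of the named genes differed by a direct test (edgeR's quasi-likelihood test, adjusted over all genes tested). Over all genes tested 10.2% were called. Part of the named genes were chosen for passing in a comparison, this comparison included, so the count of 12 is partly set by that choice. The only controls were taken at 18 h, so a changed response and the later sampling time cannot be told apart. Among the histone genes H4c9 differed, by -1.25 on the log2 scale (adjusted p = 0.0385). In the list for histone transcription and processing Cpsf2 differed, by -0.52 (adjusted p = 0.0395). The chaperone Daxx differed by -0.95 (adjusted p = 0.00232) and the replacement histone H2az2 by 0.74 (adjusted p = 0.0054). Rrm2, of nucleotide supply, differed by -0.96 (adjusted p = 0.0038). In cell cycle control the differences were -1.07 for Ccnd1 (adjusted p = 0.000772), 0.75 for Ccnd2 (adjusted p = 0.00403), -1.16 for the inhibitor Cdkn1a (adjusted p = 0.00214), -0.63 for E2f2 (adjusted p = 0.00625) and -0.72 for Rb1 (adjusted p = 0.00311). Outside these lists, Krt18, a keratin of simple epithelium, differed by 0.54 (adjusted p = 0.0297), and Axin2, a target of WNT signalling, by 1.64 (adjusted p = 0.0218). Of these 12 calls 8 held in all 17 alternatives. That of H4c9 was lost in 9, that of Cpsf2 in 7 (without replicate 1 or 2 of 18h-αGal or any 72h-αGal replicate, with upper-quartile factors and with the replicate block), that of Krt18 in 5 (without 18h-αGal replicate 2 or 3 or 72h-αGal replicate 1 or 3, and with the block) and that of Axin2 in 4 (without 18h-αGal replicate 2 or 72h-αGal replicate 1 or 3, and with no filter). Both effects are measured against the same control libraries, and the direct test compares 72h-αGal with 18h-αGal.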

How the results depend on the processing

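The log2 medians kept their sign under all 17 alternatives: 0.30 to 0.61 at 18 h, 0.11 to 0.42 at 72 h and -0.28 to -0.03 between the times. Calls did not hold as well. At 18 h against control the 1 call of edgeR became 6 with DESeq2, 0 with upper-quartile factors, 5 with no filter, 0 with only the 2 groups compared and 10 with both replicates 3 left out. Between 72 h and 18 h the 1 call became 2 with DESeq2, 0 with upper-quartile factors, 2 with only the 2 groups compared and 9 with both replicates 3 left out. Leaving out 1 library gave 0 to 9 and 0 to 2 calls: 9 without 18h-αGal replicate 3, 5 without control replicate 2, 0 without control replicate 1 or 3, 18h-αGal replicate 1 or 2, or 72h-αGal replicate 1 or 2. Between the times it was 2 without replicate 3 of control or of 18h-αGal, and 0 without control replicate 1, 18h-αGal replicate 2 or any 72h-αGal library. The cause was not tested. Against control at 72 h every alternative gave 0. The summed CPM of 72h-αGal moved from 2441 to 2742 without mitochondrially encoded genes. With upper-quartile factors, 479 genes were higher and 670 lower at 18 h (619 and 509 with TMM), and 1019 higher and 845 lower between the times (792 and 1144). Correlations of same-numbered libraries ran from -0.15 to 0.115. Between control and 18h-αGal they were 0.024, 0.061 and 0.115, and differently numbered libraries of these groups gave -0.1 to 0.044. Same-numbered pairs with a 72h-αGal library gave -0.15 to -0.008. These values do not settle whether replicate numbers pair the libraries. The fit with a replicate block called 1 histone gene at 18 h and 1 between the times, H4c14 in both, in place of H4c18 and H4c9, and lowered the calls over all genes at 18 h from 1128 to 781.

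Of 2193 alternative values of 43 named genes, 84 changed sign, none of them called. Ranges with 1 library left out were, against control at 18 h, -0.18 to 0.14 for Cdk2, -0.37 to 0.14 for E2f1, -0.16 to 0.10 for H1f2, -0.06 to 0.05 for H3f3a, -0.06 to 0.05 for H3f3b, -0.01 to 0.50 for Lsm11, -0.35 to 0.14 for Npat and -0.13 to 0.15 for Pcna. At 72 h they were -0.10 to 0.41 for Ccne1, -0.19 to 0.20 for Ccne2, -0.08 to 0.40 for E2f1, -0.09 to 0.07 for E2f2, -0.03 to 0.29 for H1f3, -0.04 to 0.42 for H2bc15, -0.07 to 0.00 for H3f3b, -0.05 to 0.28 for H4c14, -0.09 to 0.06 for Hinfp, -0.21 to 0.22 for Lsm10, -0.08 to 0.41 for Npat and -0.23 to 0.05 for Pcna. Between the times they were -0.30 to 0.02 for Eri1, 0.00 to 0.22 for H1f4, -0.27 to 0.05 for H2ac4, -0.15 to 0.26 for H3c1, -0.29 to 0.11 for H3c11, -0.11 to 0.18 for H3c6, -0.09 to 0.02 for H3f3b and -0.07 to 0.03 for Slbp. With both replicates 3 left out the values that changed sign were -0.06 for Cdk2 at 18 h, 0.01 for Ccne2, -0.07 for E2f1, -0.03 for H1f3, -0.03 for H2bc15, -0.04 for H4c14 and -0.08 for Npat at 72 h, and -0.15 for H3c1, -0.11 for H3c6 and 0.02 for H3f3b between the times. Upper-quartile factors gave -0.05 for Cdk2 and -0.06 for Pcna at 18 h, 0.01 for Ccne2 and 0.01 for Lsm10 at 72 h, and 0.00 for H3c11, 0.01 for H3f3a, 0.05 for H3f3b, 0.02 for Mki67 and 0.05 for Slbp between the times. No filter gave 0.00 for H1f2 and H3f3a at 18 h, and 0.01 for Ccne2 and 0.00 for Lsm10 at 72 h. The stricter filter gave -0.02 for Cdk2 and -0.03 for Pcna at 18 h and 0.00 for H3f3b and Slbp between the times. The replicate block gave 0.02 for Lsm10 at 72 h, and DESeq2 and RLE factors gave -0.00 for Pcna at 18 h.

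At the simulated spread, the same for every gene, edgeR recovered no 1.5-fold change, while genes with a smaller spread in the data could pass. Members with shared words depend on how reads that fit several genes were counted.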
